A study of Mus musculus with 6 samples.

Results

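AA467197 is a small mouse gene on chromosome 2, and its transcript was followed through 7 leukocyte types, set by marker genes, of control and injured kidneys. It is 1 of 32285 genes in the count tables and was taken by its symbol. It had been chosen because its counts differed between the control and the injury libraries, so that difference is described here and was not tested. The data came from droplet-based 3' single-cell RNA sequencing of live CD45+ cells sorted from kidneys of C57BL/6J mice aged 8 weeks, CD45 being the surface protein that marks leukocytes. There were 3 control libraries and 3 libraries from mice with acute kidney injury after rhabdomyolysis, in which injured skeletal muscle releases its contents into the blood. How rhabdomyolysis was induced, and how long before the kidneys were taken, is not in the labels. Nothing in them ties each library to an animal of its own, so the p-values below reflect variation from library to library and this could be technical only.

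AA467197, also known as Nmes1, encodes a small mitochondrial protein related to NDUFA4, a subunit of respiratory complex IV (cytochrome c oxidase). In macrophages the gene is switched on by Toll-like receptor and NF-kB signals, and its protein can take the place of NDUFA4 in complex IV. The same transcript is the host of the microRNA miR-147, which is known to target Ndufa4. The results therefore follow AA467197 itself, then its relative Ndufa4 and the other complex IV genes, and then the genes that varied with it among phagocytes.

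In RefSeq (GRCm38.p6) AA467197 lies on chr2:122637887-122641076, plus strand, and Mir147, the miRNA gene, lies inside that span at chr2:122640803-122640881. The sequence of the arm mmu-miR-147-5p (chr2:122640814-122640837, plus strand) is given because this RNA is carried by the same transcript. Its seed, bases 2 to 8, is in capitals. The other arm, mmu-miR-147-3p, which is the one known to target Ndufa4, is not shown here. The 250 bases before the gene's start (chr2:122637637-122637886, plus strand) follow because they hold the promoter of the gene whose counts differed, with an AP-1 motif in capitals.
mmu-miR-147-5p: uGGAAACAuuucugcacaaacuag
AA467197 promoter: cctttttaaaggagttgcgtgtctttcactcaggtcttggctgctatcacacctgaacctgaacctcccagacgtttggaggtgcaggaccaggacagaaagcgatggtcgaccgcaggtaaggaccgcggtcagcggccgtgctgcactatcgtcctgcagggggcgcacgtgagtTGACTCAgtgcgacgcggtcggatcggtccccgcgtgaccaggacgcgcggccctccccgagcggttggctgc
The AP-1 motif TGACTCA was found once, 73 bases before the start at chr2:122637814-122637820, and 4.46% of 32851 RefSeq promoter windows of this length held it on either strand. No match was found on either strand for the NF-kB motif (GGG, any 2 bases, TTTCC), the CRE motif TGACGTCA, the TATA box TATAAA or the antioxidant response motif TGACNNNGC. Their shares over all windows were 1.41%, 1.55%, 12.4% and 10.2%. A match describes letters in this window and is not a binding site, and with 1 motif found there was no overlap between motifs.

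The libraries held 10816727 to 22656666 gene UMIs (unique molecular identifiers, each counting 1 captured RNA molecule). In all, 3089 to 4036 barcodes per control library and 1517 to 3701 per rhabdomyolysis library were called as cells. A UMI of Ptprc, the gene of CD45, was found in 69.8% to 78.2% of called control barcodes and in 40.7% to 47.4% of called rhabdomyolysis barcodes. Pairs of libraries shared 0 to 6 called barcodes. Cells were assigned to gates by marker UMIs, for example C1qa, C1qb, C1qc and Adgre1 for macrophages. Rhabdomyolysis replicate 3 stood apart with 2162 barcodes poor in the nuclear RNA Malat1, against 497 and 621 in replicates 1 and 2. Rhabdomyolysis replicate 2 stood apart in hemoglobin and other erythroid RNA, at 5131 CPM (summed UMIs per 1000000 gene UMIs) in its macrophage gate, against 1.91 and 30.3 CPM in the other 2 rhabdomyolysis libraries. The platelet markers Pf4, Ppbp and Itga2b summed to 272, 210 and 210 CPM in control and 1524, 533 and 809 CPM in rhabdomyolysis macrophages, and their part in the results was not tested. Levels below are CPM of gene UMIs, and each percentage of cells carries counting error only.

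AA467197 was rare in control leukocytes and present in most macrophages of the rhabdomyolysis libraries, while B cells held almost none. Over all barcodes, the control libraries held 213, 226 and 126 AA467197 UMIs and the rhabdomyolysis libraries 19379, 28743 and 27096. In the macrophage gate the level was 6.49, 8.15 and 1.56 CPM in controls and 2312, 1899 and 1394 CPM in rhabdomyolysis. The groups were far apart there, with means of 5.40 ± 3.43 and 1868 ± 459 CPM (SD, n = 3 each), a ratio of means of 346. The share of macrophage-gate cells with a UMI was 83.7%, 80.9% and 78.3% in rhabdomyolysis (exact Clopper-Pearson 95% intervals 79.7% to 87.2%, 77.7% to 83.7% and 74.0% to 82.2%). In controls it was 0.585%, 0.672% and 0.589%. The few control molecules were also uneven, since 1 control macrophage held 23 of the 43 UMIs of replicate 1 and another held 33 of the 46 of replicate 2.

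**Figure D1:**
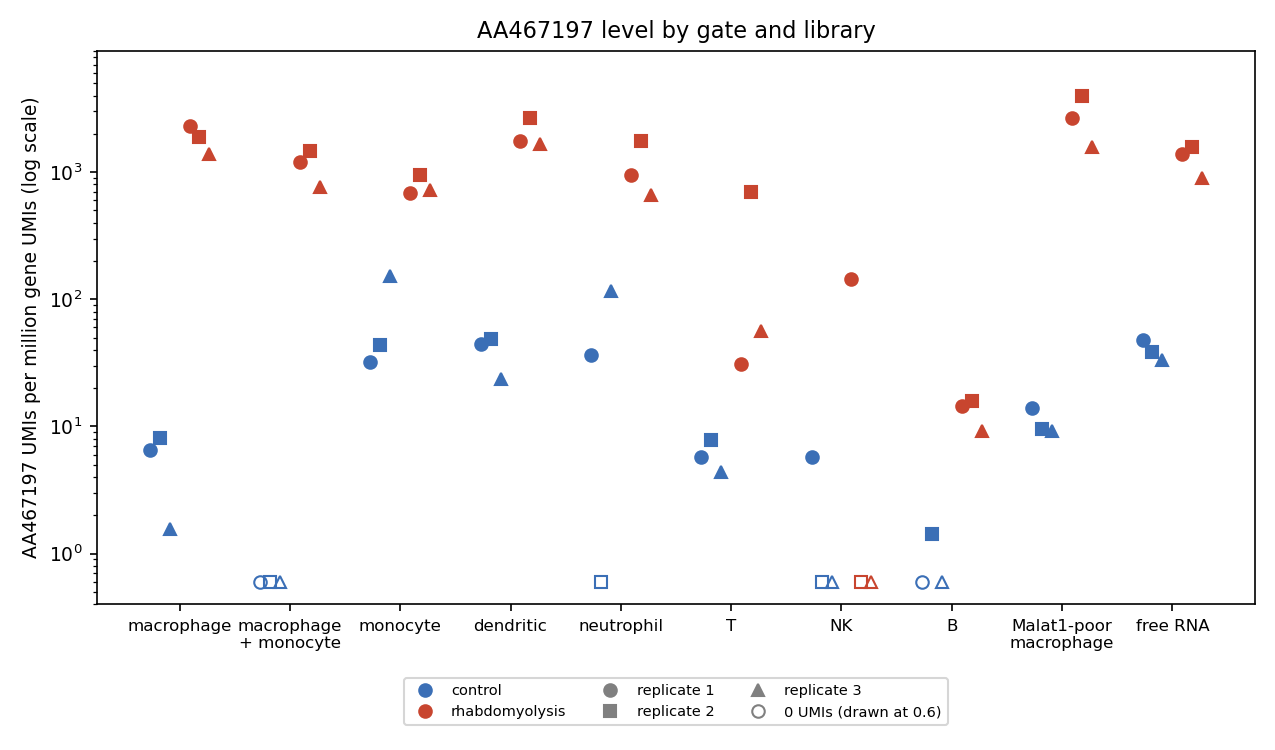
AA467197 CPM (log axis) in each gate, in Malat1-poor macrophage barcodes and in free RNA, by library; colours mark the group, shapes the replicate, and open symbols 0 UMIs. Rhabdomyolysis macrophages sit at 1394 to 2312 and B cells at 9.15 to 16.0, while free RNA of the same libraries lies at 900.3 to 1562.

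All 5 myeloid gates of the rhabdomyolysis libraries carried the transcript. Dendritic-gate cells, which present antigen, were few but nearly all positive, with a UMI in 8 of 9, 13 of 14 and 22 of 27 cells. Their level was 1757, 2648 and 1672 CPM in rhabdomyolysis and 44.3, 48.3 and 23.6 CPM in controls. Control values there rested on few cells too, and 32 of the 33 UMIs of control replicate 2 lay in 1 cell. Control monocytes held 32.4, 43.7 and 152 CPM, from 5, 5 and 12 UMIs in 2, 1 and 1 cells. Neutrophil-gate cells, shallow at a median of 1723 to 2114 UMIs per cell, held 944.0, 1761 and 664 CPM, with a UMI in 47.7%, 74.0% and 47.2% of cells. The control neutrophil gate had only 8 to 12 cells and 1, 0 and 3 AA467197 UMIs. Monocyte markers summed to 8639, 5835 and 4619 CPM in the rhabdomyolysis neutrophil gate, with 3, 5 and 4 of the 6 markers at 0, and their part in its AA467197 level was not tested.

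Along the monocyte to macrophage axis the level rose in each rhabdomyolysis library. Monocyte-gate cells, blood-derived cells marked by Ly6c2, Ccr2, Plac8 and Chil3, held 690.1, 949 and 724 CPM. Cells with both monocyte and macrophage markers held 1209, 1469 and 766 CPM, and macrophage-gate cells the 2312, 1899 and 1394 CPM given above. The order monocyte, overlap, macrophage thus held within each of the 3 libraries, but across libraries the ranges of the overlap gate touched those of both neighbours. Replicate 3 separated the monocyte and overlap gates least, by 724 against 766 CPM.

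Cells differed in depth, so each was thinned to 1000 UMIs before shares were compared between gates. The share of cells with an AA467197 UMI was then 65.1%, 55.9% and 47.3% in the macrophage gate. It was 41.7%, 46.4% and 29.0% in the overlap gate and 16.8%, 30.5% and 21.6% in the monocyte gate. Without thinning the overlap and monocyte gates had 71.3%, 71.2% and 61.5% and 33.9%, 38.9% and 35.2%. The order over gates was the same on both scales, and overlap cells ranked below macrophages although they were deeper, at medians of 11559 to 12469 against 4727 to 6691 UMIs per cell. Monocytes were mixed, since most had no AA467197 UMI while 23.6%, 28.3% and 27.2% had 5 or more. In the macrophage gate 60.2%, 48.5% and 48.2% of cells had 5 or more UMIs, and the highest cell held 135, 329 and 134. No single cell held more than 4.61% of the macrophage-gate UMIs of a library.

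**Figure D2:**
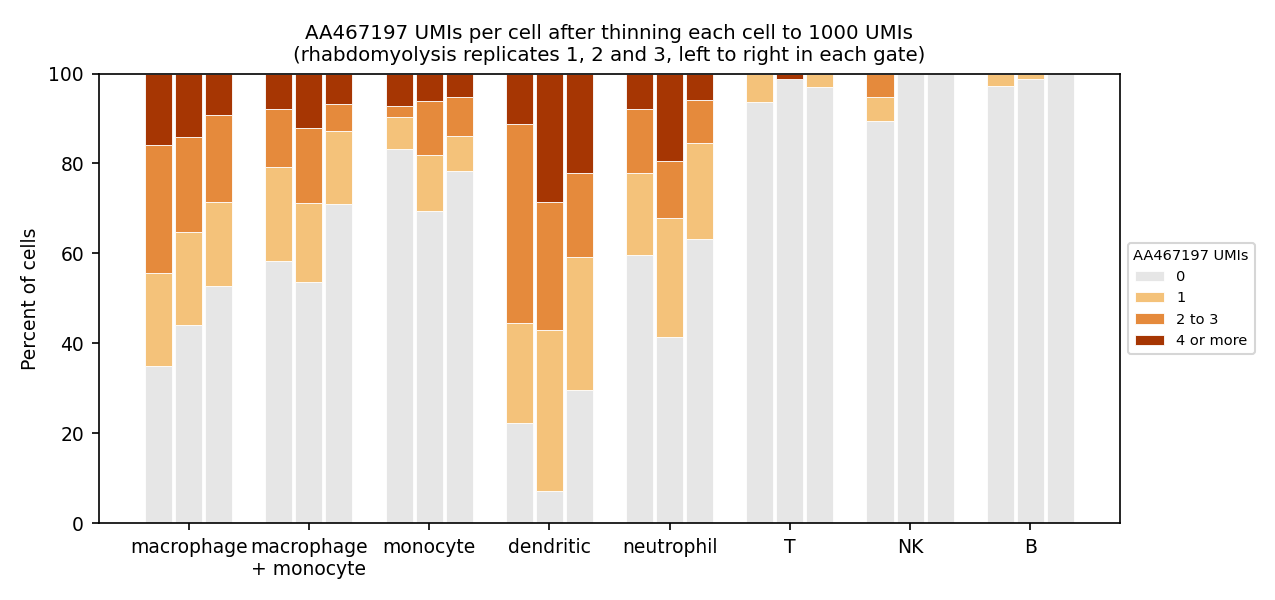
Share of rhabdomyolysis cells with 0, 1, 2 to 3, or 4 or more AA467197 UMIs after thinning to 1000 UMIs, for the 3 replicates in each gate. Dendritic cells hold the largest share with a UMI in each replicate, followed by macrophages in replicates 1 and 3 and neutrophils in replicate 2 (58.6% against 55.9%), while T and B cells are nearly all at 0.

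In rhabdomyolysis, lymphocytes lay far below the myeloid gates, apart from 1 T-gate barcode described below. B-gate cells held 1, 3 and 2 AA467197 UMIs in rhabdomyolysis, 14.6, 16.0 and 9.15 CPM, with a UMI in 2.70%, 3.75% and 2.27% of cells. The median depths there were 1872, 2260 and 2556 UMIs. Whether these few UMIs came from B cells or from free RNA was not tested. Free RNA in barcodes of 100 or fewer UMIs held 1391, 1562 and 900.3 CPM of AA467197, so the B-gate rate was 0.0105, 0.0102 and 0.0102 times that of free RNA. For the myeloid gates the ratios were 1.66, 1.22 and 1.55 in macrophages and 1.26, 1.69 and 1.86 in dendritic cells. They were 0.869, 0.940 and 0.851 in the overlap gate, 0.496, 0.608 and 0.804 in monocytes, and 0.679, 1.13 and 0.737 in neutrophils. The part of free RNA in the myeloid levels was not tested. In controls free RNA held 48.2, 38.5 and 33.3 CPM and the B gate 0, 1 and 0 UMIs. The T gate held 31.0, 695 and 56.4 CPM in rhabdomyolysis, with a UMI in 5.80%, 7.14% and 9.71% of cells at medians of 2163 to 3170 UMIs. Of the 196 UMIs of T-gate replicate 2, 191 lay in 1 barcode, which also held 107 UMIs of Il1b, a myeloid cytokine, and 2 of Cd3e. Without that barcode the T gate of replicate 2 was at 18.9 CPM, and without replicate 2 the mean over libraries was 43.7 instead of 261 CPM. NK-gate cells held 7 UMIs in 2 of 19 cells of replicate 1 and none in 16 and 70 cells of replicates 2 and 3, which allows shares of cells with a UMI of up to 18.8% and 4.29% when 3 cells are taken as the limit for a count of 0 (exact Clopper-Pearson limits 20.6% and 5.13%). Control T cells held 9, 10 and 6 UMIs, or 5.75, 7.76 and 4.41 CPM, against 6.49, 8.15 and 1.56 CPM in control macrophages. Each rhabdomyolysis T gate lay above every control T gate, also without the barcode of 191 UMIs. It also lay above the B gate of its own library. The part of free RNA in these T-gate values was not tested.

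The order of mean levels in rhabdomyolysis was dendritic (2026 ± 540 CPM), macrophage (1868 ± 459), overlap (1148 ± 355), neutrophil (1123 ± 570), monocyte (788 ± 141), T (261 ± 376), NK (48.5 ± 84.1) and B (13.2 ± 3.61), each SD over 3 libraries. Each myeloid gate overlapped its neighbours in that order over the 3 libraries, as did T and NK cells, and the B range lay below that of T. The T range reached that of monocytes through the barcode with 191 UMIs alone. Macrophage-gate barcodes poor in Malat1 held 2650, 3961 and 1579 CPM and so were higher than the macrophage gate in each library. They carried 19.1%, 21.9% and 42.9% of all AA467197 UMIs of called barcodes, the last in the replicate that stood apart in such barcodes. Control barcodes of the same kind held 13.9, 9.58 and 9.24 CPM.

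The neighbours of AA467197 on chromosome 2 did not follow it. Gatm, an enzyme of creatine synthesis 26609 bases to the lower side, stood at 245, 242 and 205 CPM in control phagocytes (macrophage, monocyte and overlap gates joined) and 101, 38.6 and 127 CPM in rhabdomyolysis. It was lower in each rhabdomyolysis library than in any control there, but not in the macrophage gate alone, where replicate 3 stood at 256 CPM and the controls at 251, 249.5 and 211 CPM. Spata5l1, 1408 bases away, gave 7, 6 and 2 UMIs in control phagocytes and 1, 7 and 7 in rhabdomyolysis. The zinc transporter gene Slc30a4, 40156 bases to the higher side, gave 33, 29 and 9 UMIs and 19, 36 and 22 UMIs, so its groups overlapped. The noncoding gene 4930417H01Rik had 3 UMIs in rhabdomyolysis phagocytes and none in controls.

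Ndufa4, the complex IV subunit that the AA467197 protein can replace, showed no called change in macrophages. Its level was 245, 216 and 241 CPM in control macrophages and 239, 195 and 284 CPM in rhabdomyolysis macrophages, so the groups overlapped. The log2 change was 0.12 ± 0.18 (SE; adjusted p = 0.63, edgeR quasi-likelihood test). Without rhabdomyolysis replicate 2, the library with erythroid RNA and the lowest macrophage Ndufa4, the change was 0.32 with an adjusted p of 0.083. In all phagocytes joined Ndufa4 rose by 0.70 ± 0.16 on the log2 scale (edgeR adjusted p = 0.0051), from 249.2, 221 and 245 CPM to 343, 285 and 401 CPM. The make-up of that joined class differed, since 47 and 37 of 4300 control cells were in the monocyte and overlap gates, against 557 and 461 of 2517 rhabdomyolysis cells. Monocyte-gate cells were richer in Ndufa4, at 467, 419 and 479 CPM in rhabdomyolysis. The part of cell make-up in the joined change was not tested. In T cells Ndufa4 changed by -0.23 ± 0.17 (edgeR adjusted p = 0.47) and in B cells by -0.60 ± 0.19 (edgeR adjusted p = 0.073). In B cells the change was -0.77 with an adjusted p of 0.020 when low-count genes were kept in the edgeR fit. Ndufa4l2, the third member of the family, gave 2 UMIs in control phagocytes and 4 in rhabdomyolysis, too few to compare.

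The other nuclear complex IV subunits rose together in macrophages. Of 15 such genes 12 passed the filter on low counts, and 9 of them rose and none fell, where 18.1% of the 10307 genes tested rose and 17.8% fell (35.9% in either direction). The median log2 change was 0.81 over the 12 and -0.04 over all genes tested. Cox5a, one of these subunits, stood at 150, 138 and 160 CPM in control macrophages and 376, 254 and 490 CPM in rhabdomyolysis. The groups did not overlap, and the change was 1.41 ± 0.24 (edgeR adjusted p = 0.0029). Cox6c stood at 251, 247 and 267 CPM in controls and at 515, 449 and 532 CPM in rhabdomyolysis, a change of 1.06 ± 0.16 (edgeR adjusted p = 0.0019). Control monocytes, 47 cells in all, had means of 350 CPM of Cox5a and 477 CPM of Cox6c. Rhabdomyolysis macrophages had means of 374 and 499 CPM. The part of cell make-up in the rise within the macrophage gate was not tested. Cox5b rose by 1.05 ± 0.18 and Cox7b by 1.03 ± 0.24. Cox4i1, Cox7a2l and Cox6b2 did not pass the test, at 0.40 ± 0.16, -0.06 ± 0.31 and -0.26 ± 0.58. Of the subunits encoded in mitochondrial DNA, mt-Co3 fell by 0.74 on the log2 scale (SE 0.19, edgeR adjusted p = 0.017), while mt-Co1 was at -0.41 ± 0.21 and mt-Co2 at -0.35 ± 0.22. Leaving out 1 control library lowered the number of called macrophage genes from 3703 to 2125, 1836 and 2397 without replicates 1, 2 and 3. Cox7b lost its call without control replicate 2 (edgeR adjusted p = 0.061), and mt-Co3 lost it without any 1 of the 3 controls or without rhabdomyolysis replicate 1 (0.052 to 0.080).

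In the joined phagocytes 10 of 14 nuclear subunits rose and none fell, where 25.5% of 10919 genes rose and 25.7% fell (51.2% in either direction). Assembly factors of complex IV, which build it and insert its copper and heme, rose in 11 of 22 cases there and in 8 of 22 cases in the macrophage gate. Surf1, one of those factors, fell in both, by 0.54 and by 0.70 on the log2 scale, and lost its call in both without control replicate 2 or 3, and in macrophages also without rhabdomyolysis replicate 1. Higd1a, a small protein of the inner mitochondrial membrane known to bind complex IV, had the largest change of the list in macrophages. It went from 37.3, 35.4 and 44.3 CPM to 130, 93.6 and 149 CPM, a change of 1.76 ± 0.22 (edgeR adjusted p = 0.00075). Cox18 and Cox10 rose by 1.09 ± 0.23 and 1.08 ± 0.22 in macrophages, and Sco2 by 1.02 ± 0.28. Sco2 lost its call without control replicate 1 or 2 or rhabdomyolysis replicate 1 or 3 (0.058 to 0.101), and Coa7, at 0.95 ± 0.23, without control replicate 2 or 3.

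T cells did not show this rise. Of 11 nuclear subunits tested in the T gate none rose and 1 fell, Cox6a1 by 0.81 on the log2 scale (SE 0.20, edgeR adjusted p = 0.017), where 5.33% of 6846 genes rose and 3.18% fell (8.52% in either direction). The median was -0.13 over the 11 and 0.00 over all genes. Of 18 assembly factors none was called. In B cells none of 11 nuclear subunits and none of 12 assembly factors was called, where 2.07% of 4679 genes rose and 2.56% fell (4.64% in either direction). In B cells mt-Co3 fell by 0.59 (edgeR adjusted p = 0.012) and lost its call without any 1 of the 3 controls or without rhabdomyolysis replicate 1 (0.072 to 0.102). The difference between macrophages and T cells was tested in 1 edgeR fit with the library as a block, a test chosen after seeing the data. Of 15 complex IV subunit genes in that fit 9 differed, all with the higher change in macrophages, where 19.0% of 10259 genes differed in either direction. Cox5a differed by 1.94 ± 0.22, Cox6c by 1.59 ± 0.21, Cox7b by 1.31 ± 0.23 and Cox5b by 1.01 ± 0.23. Ndufa4 differed by 0.53 ± 0.21, with an edgeR adjusted p of 0.0729. Scaling by library totals in place of the trimmed mean shifted the median change of all genes by -0.18 in joined phagocytes and by -0.20 in T cells, and under it Cox6c and mt-Co3 were also called in T cells, at -0.56 and -0.54.

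**Figure D3:**
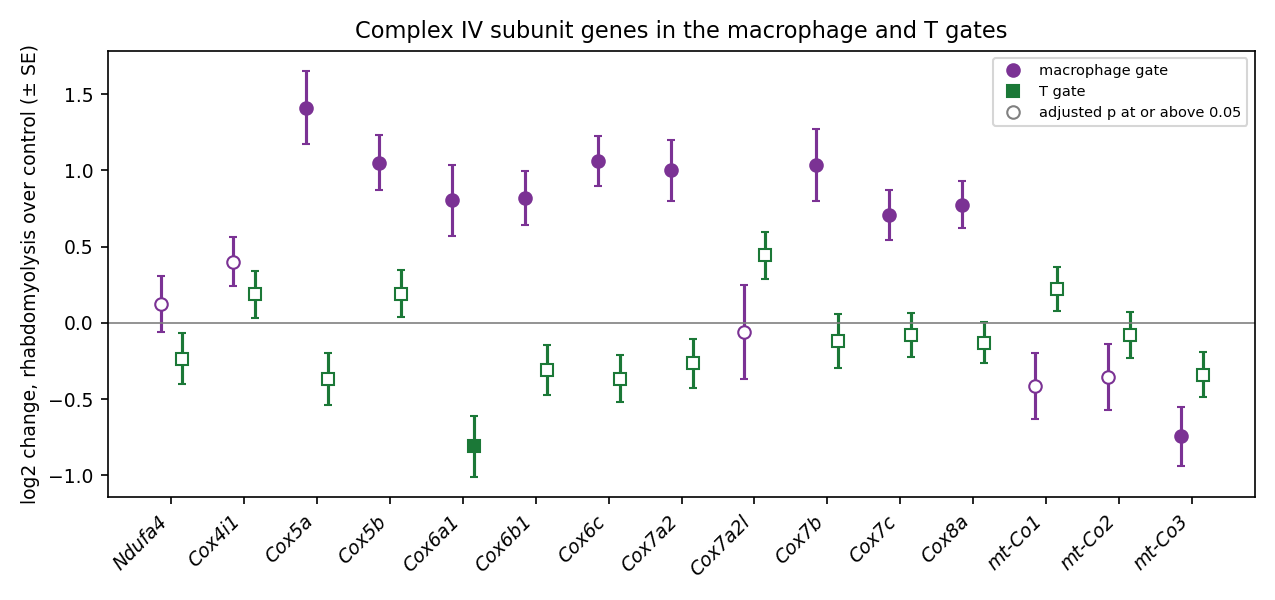
Log2 change (± SE of the edgeR fit) of Ndufa4, 11 other nuclear and 3 mitochondrial subunit genes of complex IV in the macrophage and T gates; filled symbols passed the test. Cox5a, at 1.41, is the highest macrophage value, Ndufa4 lies at 0.12, and in T cells Cox6a1 at -0.81 is the one filled symbol.

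Within rhabdomyolysis macrophages, cells that carried AA467197 had less Ndufa4 than cells that did not. Macrophage-gate cells were split by whether an AA467197 UMI remained after thinning to 1000 UMIs, and Ndufa4 was then counted over all their UMIs. Cells with AA467197 held 212, 176 and 220 CPM of Ndufa4 in replicates 1, 2 and 3, and cells without held 314, 230.3 and 371 CPM. The ratios were 0.675 (95% counting interval 0.570 to 0.801), 0.766 (0.659 to 0.893) and 0.592 (0.518 to 0.677), with a mean of 0.678 ± 0.087 (SD, n = 3). Ndufa4 was thus lower in the AA467197 cells of each library. The split compared 261, 393 and 212 cells with 131, 262 and 188, at median depths of 6809, 5690 and 7550 against 4195, 4231 and 6074 UMIs. Cells of 1 library are not replicates, so the split is a description over 3 libraries with no test. Rhabdomyolysis monocyte and overlap gates held more Ndufa4, at means of 455 and 422 CPM against 239 CPM in macrophages, and less AA467197. The part of any such cells that fell short of the monocyte gate's 3 UMIs was not tested.

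The other nuclear subunits did not share that pattern. Ndufa4 had the lowest ratio of the 12 genes in each of the 3 libraries, and the other 11 had medians of 1.12, 1.13 and 1.06. Cox5a, the subunit with the highest change between groups, stood at 1.4, 1.25 and 1.12, so it was higher in cells with AA467197. The gene nearest to Ndufa4 was Cox7a2l, a factor of respiratory supercomplexes, at 0.692 in replicate 1, within the interval of Ndufa4. In replicates 2 and 3 Cox7a2l was at 0.897 and 1.06. The rank of Ndufa4 among all genes in this split was not tested. From cell to cell in the joined rhabdomyolysis phagocytes, Ndufa4 correlated with AA467197 at -0.13, -0.09 and -0.13 by replicate. By the highest of these 3 values Ndufa4 was 38th from the lowest of 1954 genes, so other genes were more negative. Cox7a2l, at -0.09, -0.10 and -0.04, and Cox4i1, at -0.06, -0.07 and -0.04, were also negative in each library.

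**Figure D4:**
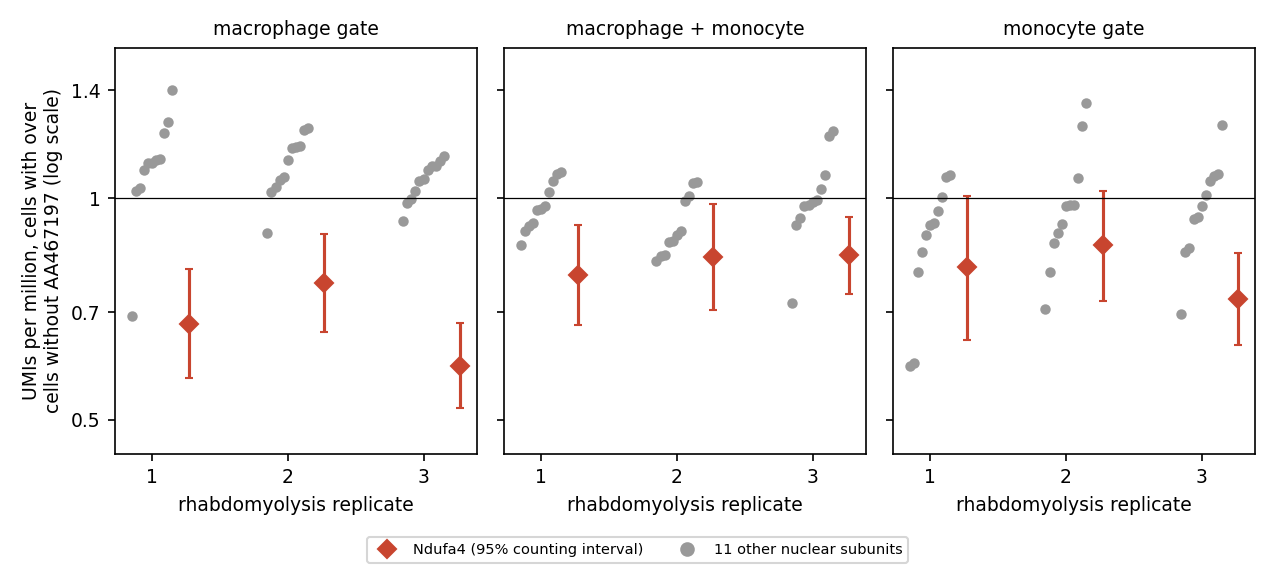
Ratio of CPM in rhabdomyolysis cells with AA467197 to those without (log axis), by replicate and gate, for Ndufa4 with its 95% counting interval and for 11 other nuclear complex IV subunits. In the macrophage gate Ndufa4 lies at 0.592 to 0.766, below the other 11 in each library.

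The level of Ndufa4 was lower in macrophages with more AA467197. In replicate 1, macrophages with 0, 1, 2 to 3, and 4 or more thinned AA467197 UMIs held 314, 290, 191 and 168 CPM of Ndufa4. In replicate 2 the values were 230.3, 208, 166 and 146 CPM, and in replicate 3 they were 371, 266, 206 and 141 CPM. At this thinning the order was the same in all 3 libraries, although neighbouring classes had overlapping counting intervals in most steps. After thinning to 2000 UMIs it did not hold in replicate 1, with 341, 449, 193 and 193 CPM over the same classes. In replicates 2 and 3 the values were then 262, 240.5, 169 and 150.1 CPM, and 410.3, 331, 230.5 and 173 CPM. The summed level of the other 11 subunits went the other way, from 4702 to 5413, from 4625 to 5193 and from 5230 to 5925 CPM between the lowest and the highest class.

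**Figure D5:**
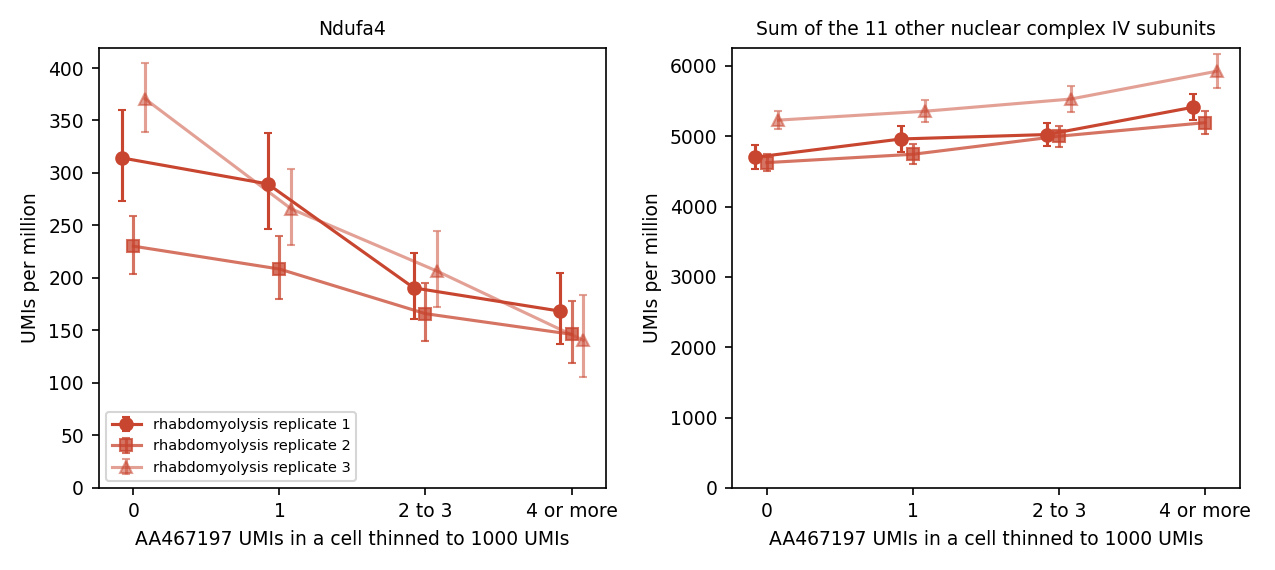
Ndufa4 (left) and the sum of 11 other nuclear complex IV subunits (right), in CPM with 95% counting intervals, in rhabdomyolysis macrophage-gate cells grouped by AA467197 UMIs after thinning to 1000. Ndufa4 goes from 230.3 to 371 in cells with none down to 141 to 168 in cells with 4 or more.

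Outside the macrophage gate the split was smaller. In the overlap gate the Ndufa4 ratios were 0.788, 0.833 and 0.836, with 0, 1 and 1 of the 11 other subunits below it. In the monocyte gate they were 0.807, 0.864 and 0.730, with 3, 2 and 1 below it, and 2 of the 3 counting intervals reached above 1. Over all phagocytes joined the ratio was 0.609, 0.615 and 0.612, but monocyte-gate cells made up 26, 46 and 56 of the 336, 465 and 331 cells with AA467197 and 99, 131 and 194 of the 296, 492 and 540 cells without. The part of that make-up in the joined ratio was not tested. The ratios in the macrophage gate with Malat1-poor barcodes included were 0.617, 0.821 and 0.592, and with thinning to 2000 UMIs 0.642, 0.664 and 0.562. Without replicate 2 or replicate 3 the mean of the macrophage ratios was 0.634 or 0.720.

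Genes induced by NF-kB and Toll-like receptor signals, the signals that switch on AA467197, rose in phagocytes. Of 33 such genes tested in the macrophage gate 20 rose and 3 fell, and of 34 in the joined phagocytes also 20 rose and 3 fell, with medians of 1.21 and 1.12. Over all genes tested 18.1% rose and 17.8% fell in macrophages, 25.5% rose and 25.7% fell in joined phagocytes, and the median was -0.04 in both. AA467197 was chosen on these samples, and the list was drawn up with that known, so it is not independent evidence. Il1rn, which encodes the interleukin 1 receptor antagonist, had 7 UMIs in control and 811 in rhabdomyolysis phagocytes, a ratio of rates of 98.2 (95% counting interval 47.4 to 245). Clec4e, a receptor that senses dying cells, had 15 and 2905 UMIs, a ratio of 164 (99.3 to 294). Cxcl3, a neutrophil attractant, and the cytokine gene Il1a had 1 control UMI each, and 2793 and 461 in rhabdomyolysis. With so few control UMIs, Cxcl3, Il1a and Il1rn passed the filter on low counts through the rhabdomyolysis libraries alone. They could therefore only be called as rises, as could Clec4e in the macrophage gate, with 1 control UMI. How many other counted members this held for was not counted. The 3 genes that fell in macrophages were Nfkb1 and Rel, subunits of NF-kB, at -0.94 ± 0.15 and -0.62 ± 0.18, and its inhibitor gene Nfkbie at -1.14 ± 0.18. From cell to cell in the thinned rhabdomyolysis phagocytes, members of this list had no common direction with AA467197. Clec4e correlated with it at -0.15, -0.14 and -0.08 by replicate, and Socs3 at 0.03, -0.08 and -0.10. Cxcl2 and Il1b went the other way, at 0.16, 0.06 and 0.01 and at 0.06, 0.006 and 0.05. These weak correlations do not place the rise of the list in the cells with AA467197.

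The same list also moved in T cells, where AA467197 was higher than in control T cells but, apart from 1 barcode, far below the myeloid gates. Of 21 genes tested in the T gate 13 rose and none fell, with a median of 1.43, where 5.33% of all genes tested rose and 3.18% fell and their median was 0.00. The T-gate sums kept the replicate 2 barcode with 191 AA467197 UMIs. It held 107 UMIs of Il1b and 38 of Cxcl2, both on the list, and its part in these counts was not tested. Socs3, a feedback inhibitor of cytokine signalling, rose by 4.38 ± 0.25, the NF-kB inhibitor gene Nfkbia by 2.55 ± 0.15 and the subunit gene Nfkb2 by 2.38 ± 0.25. In B cells 1 of 15 rose, where 2.07% of all genes tested did, and this was Socs3, by 4.63 ± 0.36 (edgeR adjusted p = 1.9e-09).

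Genes that varied with AA467197 from cell to cell were sought in 632, 957 and 871 rhabdomyolysis phagocytes thinned to 1000 UMIs, over 1954 genes. The correlations were weak, and in sparse counts a weak correlation is no finding. The 10 genes with the highest lowest-of-3-libraries correlation were C1qb, Actb, C1qa, Clec5a, C1qc, Rplp1, Cxcl16, Tmsb4x, Bcl2a1b and Mmp12, from 0.17 for C1qb down to 0.11 for Mmp12. The 5 lowest were Plac8, Chil3, Klf2, Hp and Gsr, and Plac8 lay between -0.28 and -0.24. The C1q genes, Plac8 and Chil3 also set the gates, so their correlations are tied to the order of the gates given above. Of the top 10, 2 recurred when the macrophage gate was taken alone and 1 when the other two gates were. Actb, the cytoskeletal actin gene, was the gene shared by both, at 0.38, 0.39 and 0.22 within the macrophage gate and at 0.31, 0.25 and 0.15 within the monocyte gate.

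The same phagocytes were then split by whether a companion gene had a thinned UMI. Cells with a UMI of C1qa held 2.37, 1.61 and 1.78 times the AA467197 of cells without. For Spp1, which encodes osteopontin, the ratios were 1.55, 1.45 and 1.74, and for the metallothionein gene Mt2 they were 1.45, 1.5 and 2.02. Cells with these 3 genes were thus higher in AA467197 in each library. Cells with the monocyte gene Ly6c2, only 6, 24 and 34 in number, held 0, 0.213 and 0.342 times the AA467197 of the rest. C1qa and Ly6c2 also set the gates, so their ratios are tied to the order of the gates given above. For Arg1, the arginase of alternatively activated macrophages, the ratios were 0.845, 0.935 and 1.09, and for Hmox1, the heme-degrading enzyme, 0.960, 0.926 and 0.843. The ratios for Il1b were 1.18, 1.07 and 1.04, and those for Trem1, at 0.916, 1.06 and 1.61, had no common direction. No cell held a thinned UMI of the chemokine gene Cxcl9.

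Over the 36 gate and library sums with at least 20 cells, the pattern of AA467197 on the log2(CPM + 10) scale was most like that of Ier3 among 5310 genes (Pearson r = 0.89). Ccr1 and Ecm1 followed at 0.89 and 0.89, then Tubb6, Clec4n, Clec5a, Smim3, Trem1, Cdkn1a and Adam8 at 0.88 to 0.85. The points share libraries, so these values are descriptions. Ier3, an immediate early gene, stood at 29.7, 19.1 and 24.4 CPM in control macrophages and 1263, 1702 and 328 CPM in rhabdomyolysis. Its rhabdomyolysis neutrophils reached 3131, 2430 and 3982 CPM, above macrophages, where AA467197 neutrophils lay below. Ccr1, a chemokine receptor gene, likewise was higher in rhabdomyolysis neutrophils (1277 to 1579 CPM) than in macrophages (296 to 402 CPM). From cell to cell in the thinned rhabdomyolysis phagocytes, Ier3 correlated with AA467197 at -0.01, -0.11 and -0.07 by replicate. Clec5a correlated with AA467197 there at 0.15, 0.16 and 0.17. Of the 10 genes, 5 recurred when log2(CPM + 1) was used and 5 when only genes of at least 100 mean CPM were compared.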

How the data were processed

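The deposited values are raw UMI counts per gene and barcode, made by the authors with Cell Ranger 4, per the file headers, on the mm10 build, per the submitters' processing notes. The matrices were not filtered for cells. Cells were barcodes of 500 or more UMIs and 200 or more genes, with no more than 15% of UMIs from mitochondrial genes and RNA that differed from free RNA by a Monte Carlo test (free RNA: barcodes of at most 100 UMIs, 10000 draws, adjusted p at most 0.001). Barcodes over 10000 UMIs were kept without that test. Malat1 had to make up 0.1% of UMIs. A gate needed 3 UMIs (dendritic: 2) over 2 of its marker genes, and barcodes in other pairs of gates than macrophage and monocyte were left out, in place of a doublet caller. Doublets within a gate were not treated.

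UMIs were summed per library and gate and tested with edgeR 4.0.16 in R 4.3.3 (quasi-likelihood, TMM, filterByExpr, Benjamini-Hochberg, called under 0.05), after a check on simulated data. DESeq2 1.42.0 was an alternative. Only joined phagocytes, macrophages, T and B cells had 20 cells in enough libraries to be tested; the monocyte, dendritic and NK gates did not. Reference names and sequences came from RefSeq GRCm38.p6, where AA467197 matched by symbol. Intervals cover counting error only.

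The gene, the lists and the tests were chosen with earlier results of these data known. Genes named were AA467197, Ndufa4, Ndufa4l2, up to 4 called members with the largest change per list, the genes most like AA467197, fixed companions and the nearest neighbours. Cox4i1, Cox6a1, Cox6b2, Cox7a2l, mt-Co1, mt-Co2, Nfkb1, Rel, Nfkbie, Socs3, Nfkbia, Nfkb2, Ptprc, Ccl17 and Ccl22 were named after their values were seen.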

Additional observations from a re-analysis of the deposited data

Results flagged for a closer look

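AA467197 was also present in rhabdomyolysis barcodes left out of the gates, far above the level of the control libraries. Of these, only the Malat1-poor macrophage barcodes were set against a gate above. Malat1-poor macrophage barcodes held a mean of 2730 ± 1193 CPM in rhabdomyolysis (SD, n = 3), against 10.9 ± 2.62 CPM in control. Barcodes that fell in no gate held 1627 ± 669 CPM, against 6.79 ± 7.94 CPM. Barcodes that fell in several gates, and could hold more than 1 cell, held 1174 ± 462 CPM, against 8.94 ± 6.86 CPM.

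Of the 9 complex IV subunit genes that differed, 4 were among the genes named for their size of change: their change differed between the macrophage and the T gate by the test of the difference itself (edgeR, macrophage minus T, log2 scale). The differences were 1.94 for Cox5a, 1.59 for Cox6c, 1.31 for Cox7b and 1.01 for Cox5b.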

How the results depend on the processing

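The AA467197 levels of each gate moved by less than the spread between libraries under each alternative, except in B cells of rhabdomyolysis, at 6.87 instead of 13.2 CPM with a gate minimum of 5 UMIs. In T cells of rhabdomyolysis that spread rests on the replicate 2 barcode with 191 AA467197 UMIs, so the comparison says little there. A move within the spread can also change the order of gates with close means, such as dendritic and macrophage. Called genes numbered 1836 to 5461 in macrophages, 372 to 635 in T cells and 97 to 355 in B cells when 1 library was left out, against 3703, 583 and 217, and 340 in B cells with no filter on low counts. The T count was lowest without control replicate 2 or 3 (372 and 376). The B count was 97 to 109 without any 1 control library, 99 without rhabdomyolysis replicate 2 and 355 without replicate 3. Ndufa4 in B cells was called, at -0.77, with no filter. Of the 10 genes most like AA467197 over cells, 1 recurred in the monocyte and overlap gates, 2 in the macrophage gate and 5 to 8 with 1 library left out. Over gates and libraries 5 recurred under either alternative. The cause of these shifts was not tested. With the replicate number as a block (replicate block), 5574, 3574, 459 and 152 genes were called in joined phagocytes, macrophages, T and B cells, and Ndufa4 changed by 0.69 and 0.11 in joined phagocytes and macrophages. The block changed no call of a named gene. Same-numbered libraries correlated at 0.003 to 0.156 after centring. With 3 libraries per group these values cannot settle whether the numbers pair them. Each library correlated best with its own number in joined phagocytes and B cells but not in macrophages and T cells. The number of cells limits the NK, dendritic and control monocyte values.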

Other observations

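Control kidneys held a few cells rich in AA467197, a comparison chosen after seeing the data. Of 10596 called control barcodes 14 had 5 or more AA467197 UMIs, namely 4, 7 and 3 in the 3 libraries, and these held 165 of the 361 UMIs of all called control barcodes. Of the 14, 7 also had a UMI of Ccl17 or Ccl22, chemokine genes of activated dendritic cells (4, 1 and 2 by library). Among control barcodes with at least 3000 UMIs, 0.892% of 6165 had one. In rhabdomyolysis, 23 of 580, 107 of 888 and 42 of 1090 barcodes with 5 or more AA467197 UMIs had a UMI of Ccl17 or Ccl22, and 3.04%, 9.33% and 2.98% of deep barcodes did.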
